A study of Mus musculus with 5 samples.

Results

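The transcripts described here are those of 10 genes that make oxysterols, sense them, and move cholesterol out of macrophages: *Ch25h*, *Cyp27a1*, *Nr1h3*, *Nr1h2*, *Abca1*, *Abcg1*, *Apoe*, *Mylip*, *Lpcat3*, and *Soat1*. They were chosen by gene symbol, with earlier results of these data known. All 10 of 10 were found among the 17058 genes with a value in any library. Oxysterols are oxidized forms of cholesterol. Enzymes such as CH25H and CYP27A1 make them, and they bind the liver X receptors (LXRs), nuclear receptors that pair with retinoid X receptors on DNA and switch on genes for cholesterol efflux. In macrophages, which take up lipoproteins and dead cells, the LXR targets ABCA1 and ABCG1 export cholesterol to acceptor particles, APOE carries it, MYLIP curbs lipoprotein uptake, and SOAT1 stores the surplus as esters. CH25H is also induced by interferon and toll-like receptor signals, and its product holds back the SREBP factors that drive sterol synthesis.

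RNA-Seq was done on macrophages grown from the bone marrow of Balb/c mice (BMDMs), differentiated in M-CSF and then kept with 4T1 cells, a mouse mammary carcinoma line, for 48 hours, with a porous membrane between the cell types. The study used female mice for BMDMs and gives their age only as a range. In 2 libraries the cancer cells were 4T1 wt (called WT here), and in 3 they were 4T1 ADAM17 knock-out 2.8 (called Adam17-/- here), with *Adam17* removed by CRISPR/Cas9 in the cancer cells only. ADAM17 is a protease that sheds growth factors from the cell surface, and the comparison asks what its loss in the cancer cells does to the macrophages. All 3 Adam17-/- libraries carry the same line designation, so that an effect of *Adam17* and other features of that line cannot be told apart. The labels number the repeats but do not say whether they came from separate mice, and p-values measure the spread between these samples, which may be technical. *Adam17* itself was at 198 and 200 CPM (counts scaled to the normalized size of the library) in the WT libraries and at 152 to 164 CPM in the Adam17-/- libraries (log2 fold change -0.32, adjusted p = 0.0129, edgeR). The macrophages were not edited, so that this level does not check the labels.

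2 stretches of promoter sequence are shown because *Ch25h* had the largest decrease of the 10 genes and *Abca1* the largest increase. Both come from RefSeq windows of GRCm38.p6 and are printed on the gene's own strand (minus for both), as bases -150 to -31 from the start site on which the window is set. For *Abca1* that site lies inside the RefSeq span of the gene, not at its end. Capitals mark a cAMP response element (CRE, letters TGACGTCA) in the *Ch25h* stretch (chr19:34475179-34475298) and a match to a DR4, the direct repeat that LXRs bind (AGGTCA, 4 bases of any kind, AGGTCA), in the *Abca1* stretch (chr4:53159926-53160045).
Ch25h: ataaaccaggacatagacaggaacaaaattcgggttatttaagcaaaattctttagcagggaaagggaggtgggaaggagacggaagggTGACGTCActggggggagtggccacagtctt
Abca1: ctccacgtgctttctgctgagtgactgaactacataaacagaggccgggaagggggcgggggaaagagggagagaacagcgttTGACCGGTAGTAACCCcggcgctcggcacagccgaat
The DR4 in *Abca1* lies on the opposite strand, at bases -67 to -52, and differs from the searched letters at 3 of 12 fixed positions, the number of mismatches allowed. Such a match was found in 21.9% of all 32851 promoter windows and in 1 of the 12 windows found for 9 of the 10 genes (none was found for *Abcg1*), so that its presence in *Abca1* is a description only. The exact CRE in *Ch25h*, at bases -61 to -54, was found in 1.79% of all windows and in 1 of the 12. An interferon-stimulated response element (GAAA, 2 bases of any kind, GAAA), an AP-1 site (TGANTCA), and a sterol regulatory element (TCACNCCAC), each searched on both strands, were in 3.44%, 7.81%, and 1.24% of all windows and in 0 of the 12. An E-box (CACGTG; 7.15% of all windows) was in the *Abca1* window, and TATAAA (13.6% of all windows) was in windows of *Abca1*, *Apoe*, *Ch25h*, and *Mylip*.

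The libraries held 14658694 to 20788373 counts, and 12576 genes passed the filter on low counts and were tested, all 10 genes among them. Genes that define macrophages were abundant in every library, while 5 of 8 epithelial markers of mammary cancer cells (*Epcam*, *Krt8*, *Krt14*, *Krt19*, and *Cldn4*) were at 3 counts or fewer in each library and *Krt5* was at 0. The summed epithelial markers were 11.0 to 12.6 CPM with WT cells and 11.9 to 13.8 CPM with Adam17-/- cells, nearly all from *Cdh1*, the 1 marker tested, which did not pass (log2 fold change 0.14, adjusted p = 0.422, edgeR). The macrophage markers moved with the groups: the summed level of all 7 was 27600 to 28300 CPM in the WT libraries and 17900 to 19800 CPM in the Adam17-/- libraries, and 6 of the 7 passed as lower. Over all 7, log2 fold changes ran from -0.93 to -0.29, the last for *Csf1r*, which did not pass by edgeR (adjusted p = 0.0520). By DESeq2, 7 of the 7 were lower. Markers of neutrophils and their precursors moved the other way, from 322 to 391 CPM up to 1120 to 1300 CPM in sum, with 7 of 8 higher. The summed megakaryocyte and platelet markers went from 68.7 to 74.8 CPM up to 105 to 186 CPM, with 5 of 6 higher, and the dendritic cell markers from 10.6 to 16.0 CPM up to 19.6 to 26.9 CPM, with 2 of 6 higher. Of the fibroblast markers, whose sum was 29.5 to 33.2 CPM with WT cells and 24.2 to 107 CPM with Adam17-/- cells, 1 of 6 was higher, and the 6 lymphocyte markers summed to 0.541 to 1.62 CPM and 1.42 to 2.50 CPM, with 1 high enough to test and 0 called by edgeR, by DESeq2, or at an unadjusted p under 0.05. The part of these shifts in the results was not tested, and in bulk RNA, fewer cells of a type and less RNA per cell cannot be told apart.

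Of the 10 genes, 3 were higher (*Abca1*, *Cyp27a1*, and *Mylip*) and 2 lower (*Ch25h* and *Lpcat3*) with Adam17-/- cells than with WT cells. Calls rest on edgeR's quasi-likelihood test, with a Benjamini-Hochberg adjusted p, taken over all genes, of 0.05 as the limit. Over all genes tested, 14.9% were called higher and 16.8% lower by the same rule, and 31.7% in either direction. The median log2 fold change of the 10 genes was -0.10, against 0.01 over all genes tested. With library size only it was 0.05, against 0.16 over all genes. With the further limit of an absolute log2 fold change of 1, *Ch25h* was the 1 gene called lower and 0 were called higher (also 0 by DESeq2 and at an unadjusted p under 0.05), where that rule calls 0.867% of all genes lower and 3.36% higher.

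**Figure D1:**
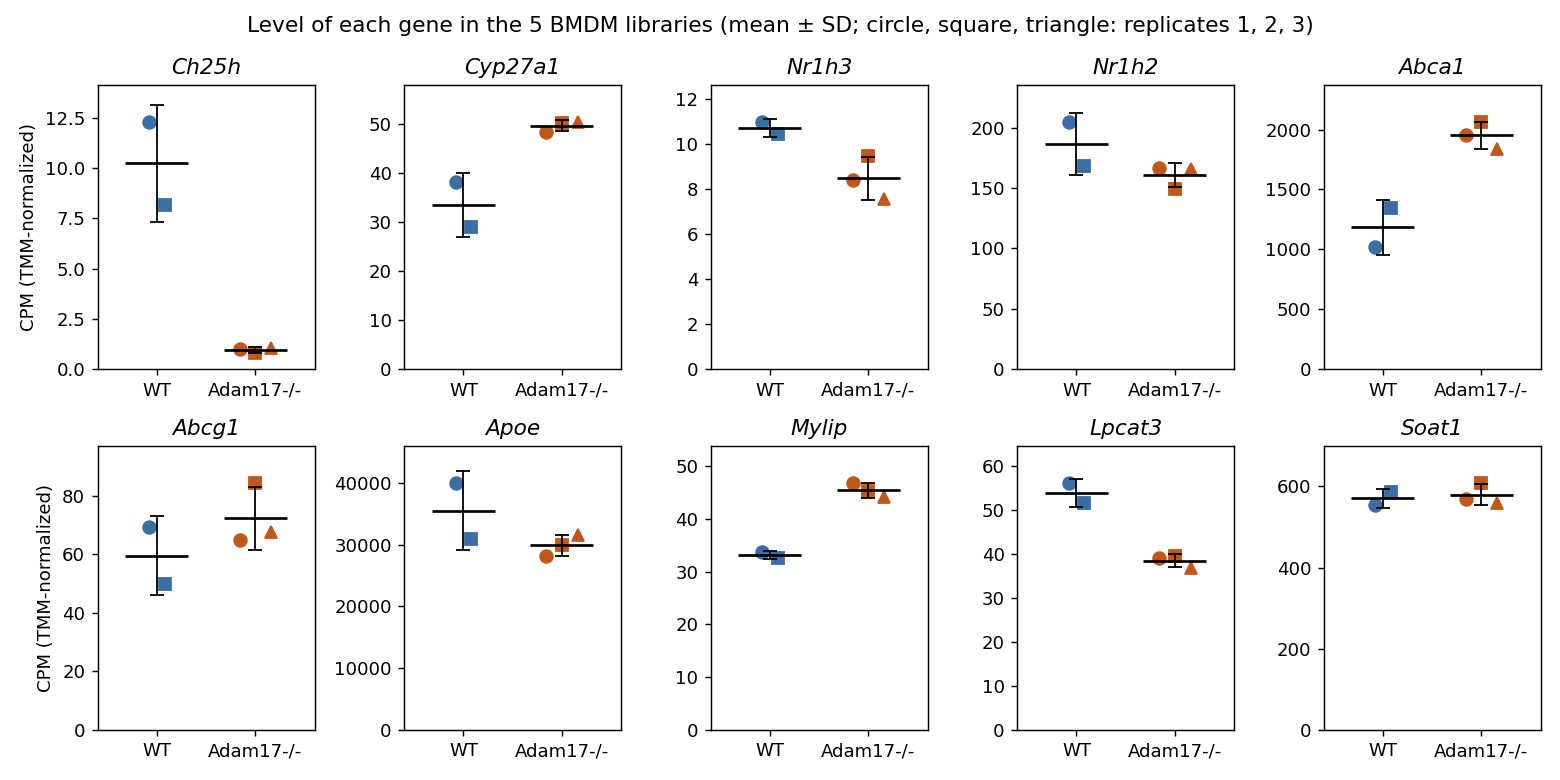
Level of each of the 10 genes in CPM (linear axis from 0) in the 2 WT and 3 Adam17-/- libraries, with points for replicates, horizontal bars for means, and error bars for SD. *Ch25h* fell to near 1 CPM in all 3 Adam17-/- libraries, *Abca1*, *Cyp27a1*, and *Mylip* lay above both WT libraries, *Lpcat3* lay below them, and the groups of *Abcg1*, *Apoe*, and *Soat1* overlapped.

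The enzymes that make oxysterols moved in opposite directions. *Ch25h* (Entrez Gene 12642, chromosome 19, 34473783 to 34475148 of GRCm38), a gene of 1 exon that encodes cholesterol 25-hydroxylase, was counted 235 and 151 times (12.3 and 8.17 CPM) in WT replicates 1 and 2. In Adam17-/- replicates 1, 2, and 3 it was counted 18, 12, and 20 times (0.985, 0.789, and 1.06 CPM). Every Adam17-/- library was far below both WT libraries, and the WT libraries differed from each other by more CPM than the highest Adam17-/- library held. The level fell 10.7-fold, with a log2 fold change of -3.42 (95% interval -3.96 to -2.87, adjusted p = 0.000145, edgeR). Of the 12576 genes tested, 2 had a lower fold change, *Gm14305* and *Gm7367*.

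*Cyp27a1* (104086, chromosome 1, 74713148 to 74737897, 9 exons), which encodes the mitochondrial sterol 27-hydroxylase, was at 38.2 and 28.9 CPM with WT cells and at 48.4, 50.3, and 50.5 CPM with Adam17-/- cells. Its mean level was 33.6 ± 6.54 CPM (SD, n = 2) with WT cells and 49.7 ± 1.13 CPM (SD, n = 3) with Adam17-/- cells, 1.48-fold higher (log2 fold change 0.57, standard error 0.119, adjusted p = 0.00732, edgeR). The 3 Adam17-/- libraries lay close together, and the lower of the 2 WT libraries was replicate 2, as it was for *Ch25h*.

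The LXR genes themselves did not pass the test. *Nr1h3* (22259, chromosome 2, 91184061 to 91202829), which encodes LXRα, was a low transcript, at 11.0 and 10.4 CPM with WT cells and at 8.43, 9.47, and 7.57 CPM with Adam17-/- cells. The groups did not overlap, with every Adam17-/- library the lower. *Nr1h3* differed by -0.34 on the log2 scale (95% interval -0.65 to -0.03), and the p from edgeR was 0.0343 before and 0.0868 after adjustment over all genes. *Nr1h2* (22260, chromosome 7, 44549616 to 44553968), which encodes LXRβ, was at 205 and 168 CPM with WT cells and at 166, 149, and 166 CPM with Adam17-/- cells. WT replicate 2 lay just above the Adam17-/- libraries, and the log2 fold change of -0.22 (95% interval -0.44 to 0.01, adjusted p = 0.131, edgeR) did not pass. Without WT replicate 2 it was -0.35 with an adjusted p of 0.0037. In this fit, as in each fit without a WT library, the spread comes from the Adam17-/- libraries alone and the lone WT library is assumed to vary like them. Over the 13 alternatives the adjusted p of *Nr1h2* ranged from 0.0037 to 0.611.

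**Figure D2:**
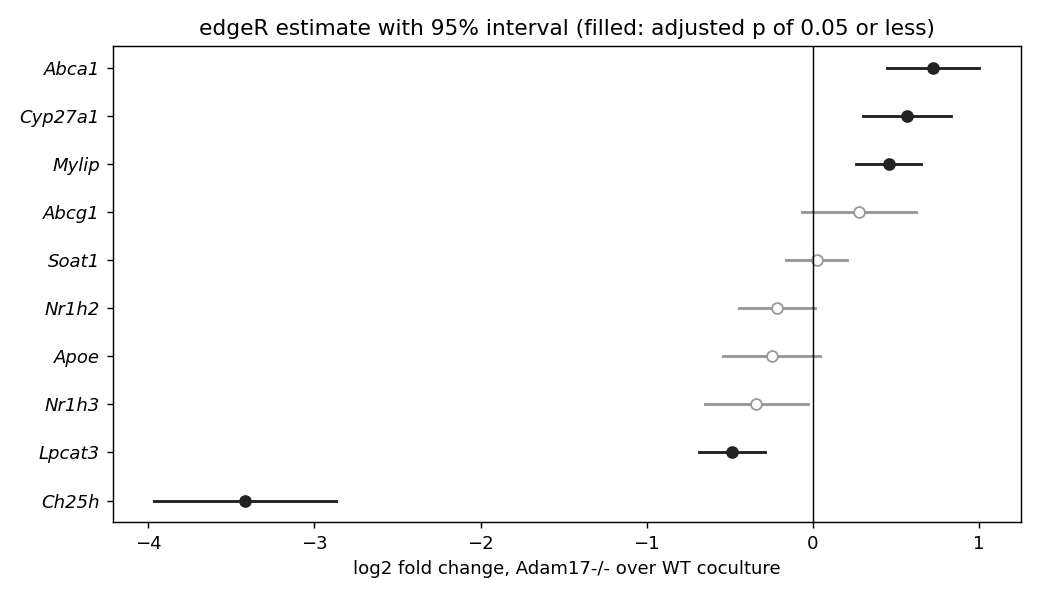
Log2 fold change (Adam17-/- over WT coculture) of each gene, ordered by size, with the 95% interval from edgeR's fit; filled points passed an adjusted p of 0.05. *Ch25h* stood at -3.42 and the other 9 genes between -0.49 and 0.72.

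Among the efflux genes, *Abca1* (11303, chromosome 4, 53030789 to 53159988, 50 exons), the transporter that loads cholesterol and phospholipid onto lipid-poor apolipoproteins, was at 1020 and 1343 CPM with WT cells and at 1953, 2063, and 1838 CPM with Adam17-/- cells. Every Adam17-/- library was above both WT libraries, and *Abca1* was 1.65-fold higher (log2 fold change 0.72, 95% interval 0.45 to 1.00, adjusted p = 0.00290, edgeR). It took 0.0937% and 0.129% of the counts of the WT libraries and 0.191% to 0.214% of those of the Adam17-/- libraries.

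*Abcg1* (11307, chromosome 17, 31057694 to 31117984), a transporter that works as a dimer and passes cholesterol to mature lipoprotein particles, was at 69.1 and 49.9 CPM with WT cells and at 64.7, 84.4, and 67.5 CPM with Adam17-/- cells. The groups overlapped, since WT replicate 1 lay above 2 of the 3 Adam17-/- libraries. The log2 fold change of *Abcg1* was 0.28 (95% interval -0.07 to 0.62, adjusted p = 0.194, edgeR), an interval that runs from below 0 to short of the estimate for *Abca1*. Whether the changes of *Abca1* and *Abcg1* differ was not tested. Without WT replicate 1 the log2 fold change of *Abcg1* was 0.53 (adjusted p = 0.00883), with the spread again from the Adam17-/- libraries alone; over the 13 alternatives the adjusted p of *Abcg1* ranged from 0.00883 to 0.744.

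*Apoe* (11816, chromosome 7, 19696244 to 19701310), the secreted lipid carrier, was by far the most abundant of the 10 transcripts. It took 3.68% and 2.98% of all counts with WT cells and 2.96%, 3.10%, and 3.28% with Adam17-/- cells. Its level was 40060 and 31000 CPM against 28220, 29930, and 31590 CPM, and the highest Adam17-/- library was above WT replicate 2. The log2 fold change was -0.25 (95% interval -0.54 to 0.04, adjusted p = 0.173, edgeR). Without WT replicate 2 it was -0.42 (adjusted p = 0.0178), with the spread from the Adam17-/- libraries alone; over the 13 alternatives the adjusted p of *Apoe* ranged from 0.0178 to 0.778.

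Another 2 LXR targets moved in opposite directions. *Mylip* (218203, chromosome 13, 45389742 to 45411940), which encodes the ubiquitin ligase IDOL, a brake on lipoprotein uptake, was at 33.6 and 32.6 CPM with WT cells and at 46.9, 45.2, and 44.2 CPM with Adam17-/- cells. Replicates lay close together in both groups, and the increase was 1.37-fold (log2 fold change 0.46, 95% interval 0.26 to 0.65, adjusted p = 0.00476, edgeR). *Lpcat3* (14792, chromosome 6, 124663094 to 124704716), which encodes an acyltransferase that puts polyunsaturated fatty acids into membrane phospholipids, was at 56.2 and 51.7 CPM against 39.1, 39.6, and 36.8 CPM. All Adam17-/- libraries lay below both WT libraries, and the decrease was 1.40-fold (log2 fold change -0.49, 95% interval -0.69 to -0.29, adjusted p = 0.00373, edgeR). The macrophage markers, with a median log2 fold change of -0.64, fell by a similar size, and their part in the decrease of *Lpcat3* was not tested.

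*Soat1* (20652, chromosome 1, 156428108 to 156474328), the enzyme that esterifies cholesterol for storage in droplets, was at 554 and 587 CPM with WT cells and at 569.6, 609, and 559.6 CPM with Adam17-/- cells. The groups overlapped in part, with Adam17-/- replicate 2 the highest library and WT replicate 1 the lowest. Its log2 fold change was 0.02 with a 95% interval of -0.16 to 0.21 (adjusted p = 0.861, edgeR), the narrowest interval of the 10 genes. The groups did not overlap in 7 of the 10 genes, against 58.1% of all genes tested.

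Between genes, levels can be compared only per length, and FPKM (fragments scaled to transcript length and library size), summed over the transcripts of a gene, was used for this. In the WT libraries the mean FPKM was 27293 for *Apoe*, 114 for *Soat1*, 109 for *Abca1*, and 89.7 for *Nr1h2*. *Lpcat3* (20.8 FPKM), *Cyp27a1* (16.8), *Mylip* (10.7), *Abcg1* (9.68), *Ch25h* (7.38), and *Nr1h3* (5.78) followed. The WT libraries of *Soat1* and *Abca1* overlapped, as did those of *Abca1* and *Nr1h2* and of *Mylip* and *Abcg1*, and the order within each of these pairs differed between the 2 libraries. The ranges of *Abcg1* and *Ch25h* overlapped too, though *Abcg1* was the higher in each WT library. In the Adam17-/- libraries, *Abca1* (199 ± 11.5 FPKM, SD, n = 3) lay above *Soat1* (128 ± 5.62) in each library. *Cyp27a1* (27.7 ± 0.452) lay above *Lpcat3* (16.4 ± 0.705), the reverse of the WT order, while *Lpcat3* and *Mylip* (16.2 ± 0.585) overlapped. *Ch25h*, at 0.760 ± 0.115 FPKM, had dropped below *Nr1h3* (5.02 ± 0.536) to the lowest place. The mRNA of LXRβ was the more abundant receptor transcript in every library, with 79.3 to 96.4 FPKM for *Nr1h2* and 4.50 to 5.79 FPKM for *Nr1h3*.

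**Figure D3:**
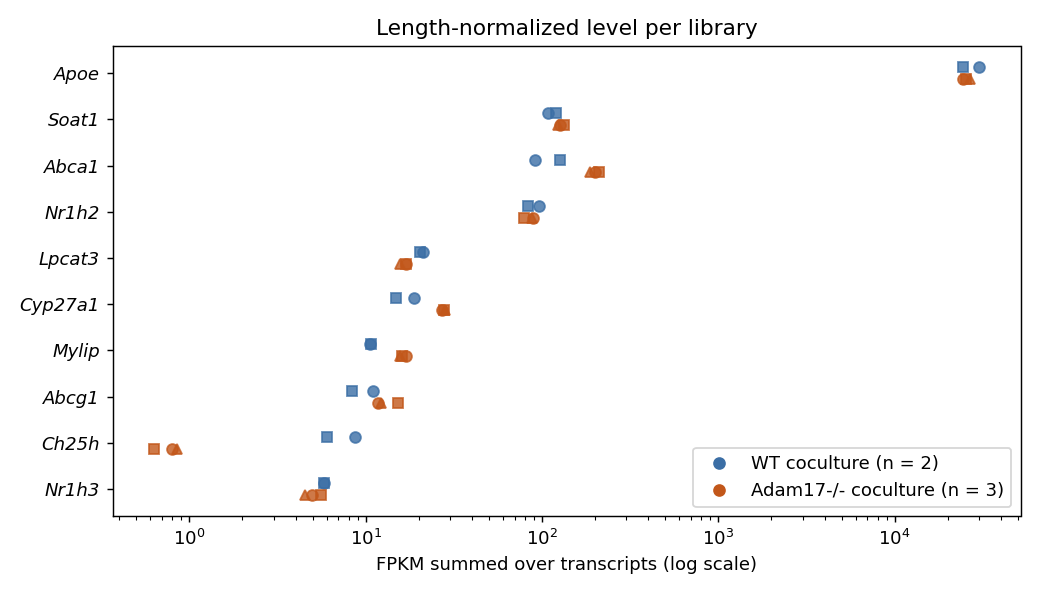
FPKM summed over the transcripts of each gene in every library, on a log axis, with genes ordered by their WT mean (blue, WT coculture; orange, Adam17-/- coculture). The 10 genes spanned more than 3 orders of magnitude, from *Apoe* at 24250 to 30159 FPKM to *Ch25h* at 0.63 to 0.85 FPKM in the Adam17-/- libraries.

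The files list values per transcript, and 7 of the 10 genes had a single RefSeq transcript with counts. In *Apoe*, the transcript of 1288 bases held 99.6% to 99.8% of the counts in every library. In *Nr1h3*, the transcript of 1802 bases held 90.0% and 100% of the counts with WT cells and 76.6%, 78.7%, and 93.0% with Adam17-/- cells. The groups overlapped, and the other transcript rested on at most 36.0 counts per library. In *Nr1h2*, 3 transcripts of 2013 to 2022 bases shared the counts. That of 2022 bases held 35.2% and 25.9% with WT cells and 37.7% to 45.9% with Adam17-/- cells. That of 2016 bases held 34.6% and 27.5% against 30.6% to 35.5%, and that of 2013 bases 30.0% and 45.4% against 19.3% to 30.5%. The other transcript, of 2029 bases, held 0.227% to 3.23%. The WT replicates lay apart in each of the 3 larger shares, and what part the splitting of shared reads had in them was not tested. No test was made on these shares.

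**Figure D4:**
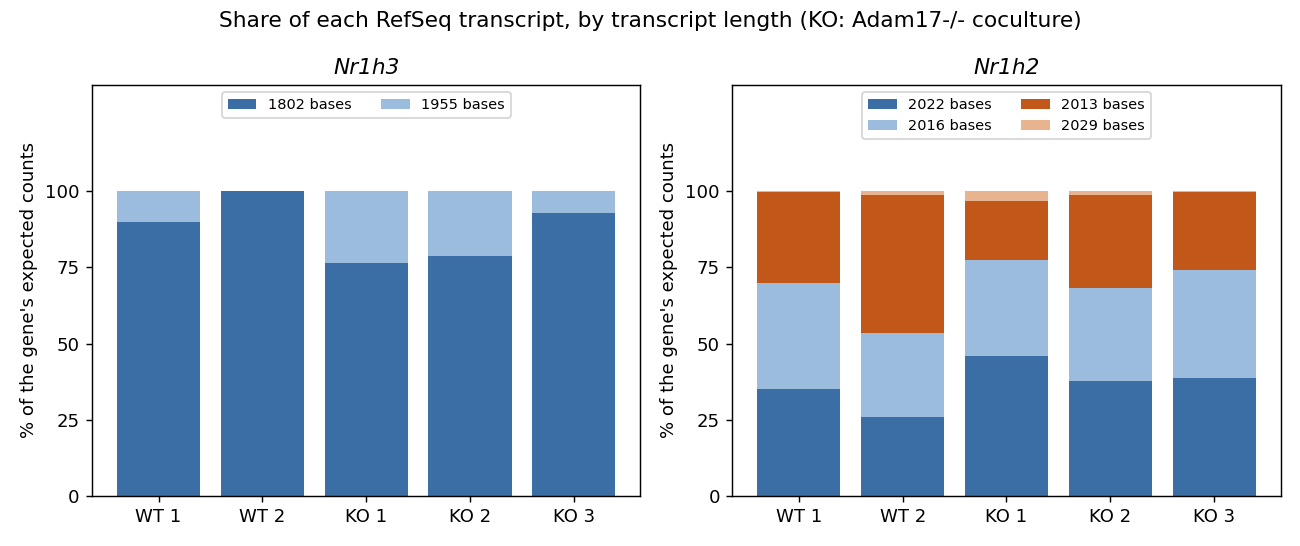
Share of the expected counts of *Nr1h3* and *Nr1h2* that was assigned to each RefSeq transcript (named by length) in the 5 libraries (KO, Adam17-/- coculture). The transcript of 1802 bases held 76.6% to 100% of *Nr1h3* counts, and no transcript of *Nr1h2* held more than 45.9%.

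The 10 genes were set beside 90 other genes of the pathway in 8 lists. Of these, 78 were tested, 10 were higher, and 29 were lower, where 14.9% and 16.8% of all genes were called higher and lower. The split depended on the scaling: of the genes called, 74.4% were lower with TMM factors and 51.3% (20 lower and 19 higher) with library size only, where the median over all genes was 0.16. The counts of the 10 genes themselves, 3 higher and 2 lower, were the same under both.

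Of 9 genes that make, clear, or sense oxysterols, 6 were tested, with 1 higher and 2 lower (median log2 fold change 0.37), or 3 higher and 2 lower with library size only. *Gpr183*, which encodes EBI2, a receptor for oxysterols made through CH25H and CYP7B1, was at 22.4 ± 2.33 CPM (SD, n = 2) in WT and 11.6 ± 1.43 CPM (SD, n = 3) in Adam17-/- cocultures, lower by a log2 fold change of -0.94 (adjusted p = 0.00122, edgeR). *Cyp7b1* was at 0 counts in both WT libraries and under 3 counts in each Adam17-/- library and was not tested. The low *Cyp46a1*, which makes an oxysterol in neurons, rose by 0.89 (adjusted p = 0.0476), a call lost under 8 of the 13 alternatives.

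Of 11 LXR partners and cofactors, 9 were tested, with 2 higher and 3 lower (median -0.16), or 3 higher and 2 lower with library size only. *Rxra*, which encodes a retinoid X receptor, decreased from 189 ± 14.5 to 136 ± 6.90 CPM (log2 fold change -0.47, adjusted p = 0.00400, edgeR). The higher genes were *Rxrb* (0.41) and *Ncor1* (0.23), and *Ncoa3* (-0.26) was also lower, all 3 named after their values were seen.

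Of 20 other LXR target genes, 17 were tested, with 0 higher and 6 lower at an adjusted p of 0.05 from edgeR (median -0.25), or 1 higher and 5 lower with library size only. *Fasn*, which encodes fatty acid synthase, fell from 121 ± 23.2 to 42.0 ± 5.52 CPM (log2 fold change -1.52, adjusted p = 0.000271). *Srebf1*, the gene of SREBP1 and an LXR target, fell from 187 ± 35.8 to 122 ± 3.63 CPM (-0.62, adjusted p = 0.00373), and the low *Fads2*, a fatty acid desaturase, had a log2 fold change of -1.13 (adjusted p = 0.0155), which did not pass without WT replicate 1 (-0.62, adjusted p = 0.144) or without Adam17-/- replicate 3 (-1.03, adjusted p = 0.0577). *Pltp*, which transfers phospholipid between lipoproteins, was at 172 ± 34.3 and 142 ± 24.0 CPM (-0.28, adjusted p = 0.179), with overlapping groups; without WT replicate 2 it was -0.47 (adjusted p = 0.0106), with the spread from the Adam17-/- libraries alone. Of the 17, 0 also passed as higher by DESeq2, and at an unadjusted p under 0.05 it was 1, *Abcg5*, at under 1 CPM.

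Of 8 other efflux transporters and acceptors, 6 were tested, with 0 higher by edgeR (0 by DESeq2, and 2 at an unadjusted p under 0.05, *Cav1* and *Abca9*) and 1 lower, *Scarb1*, the gene of the HDL receptor, at -0.40 (adjusted p = 0.0166; named after its value was seen). With library size only the direction turned, to 2 higher and 0 lower. Of 15 genes for ester storage and sterol transport, 3 were higher and 5 lower (median -0.26), and with library size only 4 were higher and 1 lower. *Stard5*, a cytosolic sterol carrier, rose from 35.2 ± 0.797 to 49.9 ± 4.75 CPM (0.50, adjusted p = 0.00655), and the membrane sterol transporters *Gramd1b* and *Gramd1c* moved apart, at -0.51 (adjusted p = 0.00399) and 1.18 (adjusted p = 0.0104), the latter at under 3 CPM. *Npc1*, which lets cholesterol out of lysosomes, went from 464.5 ± 41.8 to 360.0 ± 15.5 CPM (-0.37, adjusted p = 0.0123), a call lost under 6 of the 13 alternatives, among them library size only (-0.22, adjusted p = 0.0599) and leaving out Adam17-/- replicate 1 (-0.32, adjusted p = 0.0754) or 3 (-0.34, adjusted p = 0.0567). Over the 13, the adjusted p of *Npc1* ranged from 0.000519 to 0.1.

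Of 9 lipoprotein uptake genes, 8 were tested, with 3 higher and 4 lower (median -0.30). *Msr1*, a scavenger receptor, fell from 1334 ± 137 to 799 ± 29.4 CPM (-0.74, adjusted p = 0.000763, edgeR). *Olr1*, another scavenger receptor, rose from 0.980 ± 0.391 to 3.12 ± 1.06 CPM (1.64, adjusted p = 0.0102). *Vldlr* (0.76, adjusted p = 0.0242) and *Cd36* (0.88, adjusted p = 0.0477) also passed as higher but lost the call under 4 and 5 of the 13 alternatives. Among these were, for *Vldlr*, the fits without WT replicate 1 (0.66) or Adam17-/- replicate 2 (0.77) or 3 (0.58), and, for *Cd36*, DESeq2 and the fits without WT replicate 2 (0.73) or Adam17-/- replicate 2 (0.50) or 3 (0.97).

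Of 8 genes of the SREBP2 sterol sensor, 0 were higher and 6 lower by edgeR (median -0.49), among them *Srebf2* (-0.97), its escort *Scap* (-0.54), and the target enzyme *Sqle* (-1.21). By DESeq2, at an unadjusted p under 0.05, and with library size only, 0 of the 8 were higher. Of 10 genes for signals upstream of *Ch25h*, 9 were tested, with 1 higher and 2 lower (median -0.04), or 3 higher and 1 lower with library size only. *Atf3*, a repressor of *Ch25h*, rose from 34.8 ± 4.29 to 48.2 ± 2.67 CPM (0.47, adjusted p = 0.00908, edgeR), and the toll-like receptor adaptor *Ticam1* went from 24.2 ± 5.71 to 16.0 ± 1.27 CPM (-0.59, adjusted p = 0.0149), a call lost under 4 of the 13 alternatives, among them leaving out WT replicate 1 (-0.33, adjusted p = 0.053) or Adam17-/- replicate 2 (-0.51, adjusted p = 0.0625).

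**Figure D5:**
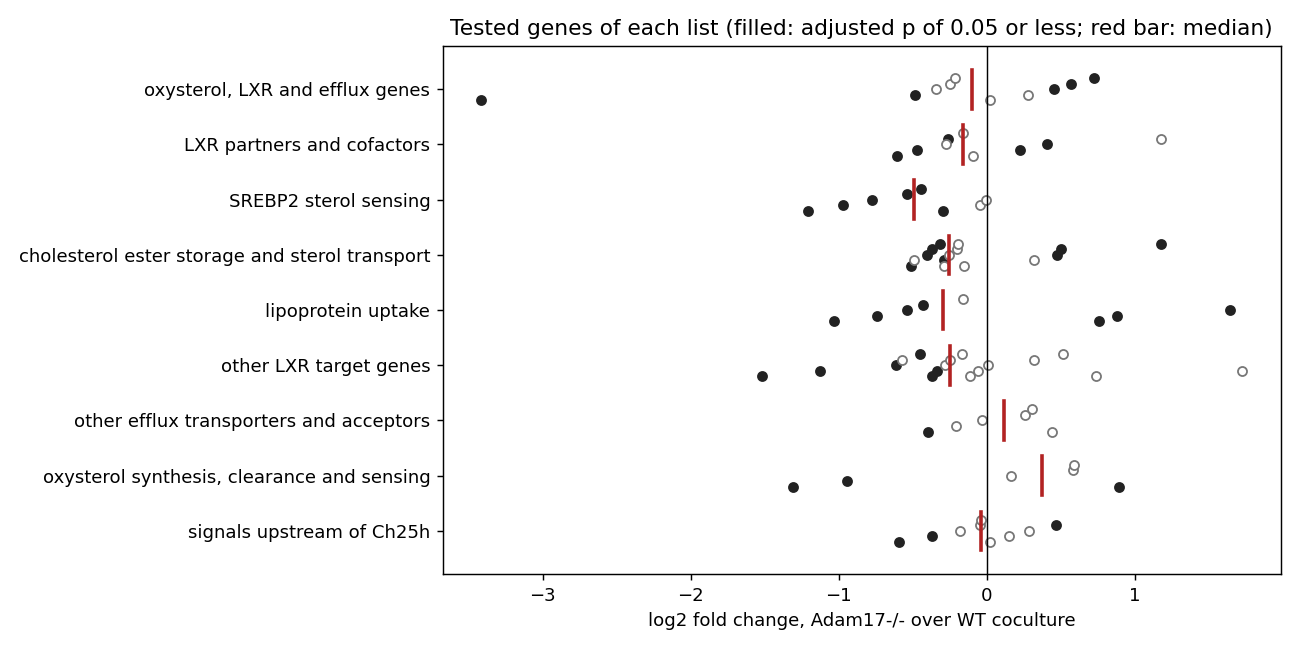
Log2 fold change (Adam17-/- over WT coculture) of every tested gene of the 10 genes (top row) and of the 8 lists around them, with filled points for genes that passed an adjusted p of 0.05 and a red bar at each median. *Ch25h* at -3.42 lies apart from all others, and the sterol sensor list has the lowest median, -0.49.

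Over the 5 libraries, the genes whose pattern came closest to that of *Ch25h* were *Itga8*, *Ccnd1*, and *Ccl2*. Likeness was measured as the root mean square difference of centred log2 CPM among 11754 genes with a mean of at least 1 CPM, and it was 0.252 for *Itga8*, an integrin subunit, 0.466 for *Ccnd1*, which encodes cyclin D1, and 0.547 for *Ccl2*, a monocyte chemokine. *Itga8* was at 9.32 and 9.85 CPM with WT cells and at 0.876, 0.855, and 1.27 CPM with Adam17-/- cells. *Ccnd1* was at 133 and 93.1 CPM against 19.9, 17.5, and 28.5 CPM, and like *Ch25h* it was higher in WT replicate 1 than in WT replicate 2. *Ccl2* shared that order, at 192 and 133 CPM against 19.8, 35.5, and 36.2 CPM. With 5 libraries in 2 groups, this likeness mostly reflects the size of the difference between groups.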

How the data were processed

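RNA-Seq was done on 2 WT and 3 Adam17-/- cocultured BMDM samples, grouped by their titles. The authors isolated poly-A RNA, sequenced it on a BGISEQ-500, aligned reads to GRCm38 with HISAT, and used Bowtie2 for expression levels (the submitters' processing notes also name RSEM and DESeq2). Versions and strand handling are not given in the sources used here, so that reads of overlapping or antisense genes cannot be told apart. The deposited expected counts per transcript are not normalized. The deposited FPKM values are scaled by the authors to transcript length and library size, and the lowest listed is 0.01; unlisted transcripts were taken as 0.

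Expected counts were summed per gene, rounded to whole counts, and fitted without covariates in edgeR (version 4.0.16, under R 4.3.3) by glmQLFit and glmQLFTest, after filterByExpr and TMM scaling. The standard error is the fold change over the root of the F statistic. A level of 3 counts, 0.157 to 0.197 CPM, was taken as the floor. Counting error and replicate spread both enter the fit. Symbols came from RefSeq for 99.75% of 17058 IDs, and exon numbers from GENCODE M21. Gene sums of *Lpcat3* and *Soat1* were not whole beyond the rounding of the listed values, as where reads are shared with other genes.

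The 10 genes, the lists, and the rule for named genes were chosen with earlier results of these data known. Named were the 10 genes, up to 5 genes per list past an adjusted p of 0.05 and an absolute log2 fold change of 0.5, 9 further list genes fixed by name, *Adam17*, and the 3 genes nearest *Ch25h* (log2 CPM, prior count 2). Some genes that this rule names are not reported here; the list counts include them. The alternatives tried were another tool (DESeq2 1.42.0), other scalings (library size only or upper quartile factors), other filters (none, or 10 counts or more in each sample), limma 3.58.1 on log2(FPKM + 0.1) and log2(FPKM + 1), a replicate block, leaving out single replicates, and stricter limits. The marker lists were those of macrophages, epithelial cells, neutrophils, megakaryocytes, dendritic cells, fibroblasts, and lymphocytes. On simulated data (12441 genes), edgeR called 81 of 100 genes changed 2-fold, 99 of 100 changed 4-fold, and 9 unchanged genes. The simulation gave both groups the same spread per gene. In the data, the WT libraries differed more from each other than the Adam17-/- libraries did (chi-square per degree of freedom 25.7 against 5.22 to 6.32). These rates may therefore not hold for the data. Sums, motif searches, and plots were made in Python 3.11.15 (pandas 2.3.3, numpy 2.4.6, matplotlib 3.10.9).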

Additional observations from a re-analysis of the deposited data

How the results depend on the processing

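*Ch25h*, *Cyp27a1*, *Abca1*, *Mylip*, and *Lpcat3* kept their direction and an adjusted p of 0.05 or less under all 13 alternatives with another fit, scaling, filter, or left-out library, with log2 fold changes of -3.68 to -2.24, 0.38 to 0.78, 0.53 to 0.93, 0.43 to 0.60, and -0.55 to -0.32. The value of -2.24 for *Ch25h* came from the log2(FPKM + 1) scale, which understates changes of low genes. *Nr1h3* and *Soat1* passed under 0 of the 13 (adjusted p 0.0801 to 0.364 and 0.141 to 0.990). *Nr1h2* passed under 1, without WT replicate 2 (-0.35, adjusted p = 0.0037), a fit whose spread comes from the Adam17-/- libraries alone. With 1 library left out at a time, the genes called lower numbered 2 to 4 of the 10 and those called higher 3 to 4, and in the pathway lists 19 to 38 were lower and 5 to 14 higher. The 4 lower calls came without WT replicate 2 (*Apoe* and *Nr1h2* added), the 19 lower pathway genes without Adam17-/- replicate 1, and the 5 higher ones without Adam17-/- replicate 3. With a log2 fold change limit of 1, the 10 genes gave 1 lower and 0 higher call and the pathway lists 5 lower and 2 higher. With an adjusted p of 0.01 or less, 20 pathway genes were lower and 3 higher, and the share of all genes at that limit was not counted. Pathway genes called higher numbered 19 with library size only, 19 with log2(FPKM + 0.1), and 18 with log2(FPKM + 1). These settings moved the median of all genes to 0.16, 0.15, and 0.11 and called 32.6%, 31.4%, and 30.8% of all genes in either direction. With the replicate block, 2 of the 10 genes were lower and 3 higher, and 20 pathway genes were lower and 7 higher. That fit called 18.6% of all genes in either direction. Same-numbered samples deviated with correlations of -0.12 and -0.05. With 2 WT libraries whose deviations mirror each other, this gives no sign of pairing. It does not exclude a shared day or batch, and the labels name none. Depth limits *Cyp7b1* and the other genes near the floor of 3 counts.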
